A study of Mus musculus with 6 samples.

Results

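The nuclear genome encodes most subunits of the 5 enzyme complexes of oxidative phosphorylation, and 83 such genes were followed here among 19937 genes measured in mouse mammary organoids. They were chosen by gene symbol alone: the Ndufa, Ndufb, Ndufc, Ndufs and Ndufv families (complex I, 36 genes), Sdha to Sdhd (complex II, 4 genes), the Uqcr family with Cyc1 (complex III, 9 genes), Cox4 to Cox8 (complex IV, 17 genes) and Atp5 (complex V, 17 genes). The symbol rule used no expression value, but it was set with earlier results of these data known. The brightest probe set, averaged across arrays, stood for each gene. Cox7c and Ndufb4 are matched only by probe sets that carry several symbols and were not analysed here, nor were the 13 subunits encoded by mitochondrial DNA.

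The organoids, clumps of epithelium freed from the mammary gland by enzymes, came from age-matched female FVB mice of the genotype ErbB3 DOX-KO, in which doxycycline (DOX) is meant to induce loss of the receptor gene Erbb3. Both groups carried this genotype and grew in Matrigel, a basement-membrane gel, for 14 days: the control group without DOX and the DOX group with 5 µM DOX, with 3 arrays each. The comparison therefore contrasts drug and induced genotype together, and DOX-treated organoids without the inducible allele were not analysed here. The promoter that drives the knockout, the age of the mice and whether animals were pooled are not given in the sources used here, and p-values measure only the spread between these arrays.

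Complexes I to IV form the respiratory chain of the inner mitochondrial membrane. Complex I takes electrons from NADH and complex II, which is also an enzyme of the citric acid cycle, takes them from succinate. Complex III passes them through cytochrome c to complex IV, which reduces oxygen, and complex V (ATP synthase) uses the proton gradient so built to make ATP. Nuclear subunits are translated in the cytosol, imported, and assembled with the mitochondrially encoded ones by dedicated assembly factors. Secretory epithelium of the mammary gland is rich in mitochondria during lactation.

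One array and the label check bear on every result below. Erbb3 read 9.78, 9.71 and 9.69 on the control arrays and 10.36, 9.31 and 9.82 on the arrays labelled DOX 1, 2 and 3, in log2 units. DOX 1 and 3 lay above every control array and DOX 2 below. As a group the arrays with that label showed no fall of the targeted gene (difference 0.10, limma adjusted p = 0.845). Without DOX 2 the difference was 0.37 (limma adjusted p = 0.105). DOX replicate 2 stood apart: the slope of its gene levels on the control means was 0.548, against 0.981 and 0.936 for DOX replicates 1 and 3, so that highly expressed genes read low on it and weakly expressed genes read high. Results are therefore given for all 6 arrays and again for the 5 arrays without DOX replicate 2, and DOX arrays means arrays labelled DOX throughout. Of the luminal keratins, Krt8 and Krt18 were bright on the control arrays (12.49 to 12.54 and 12.58 to 12.69), while Krt19 read 4.67 to 4.92, below the median of all genes, 5.93. The mean level of 7 basal markers was 5.54 to 5.67 on the control arrays and 5.13, 5.76 and 5.28 on DOX 1, 2 and 3. For 6 fibroblast markers it was 4.93 to 5.09 against 4.90, 5.73 and 5.13, for 5 endothelial markers 4.08 to 4.29 against 4.19, 5.18 and 4.39, and for 6 leukocyte markers 5.02 to 5.09 against 5.14, 5.59 and 5.35. Single markers read above the median of all genes, among them Cd68, Oxtr, Krt14, Acta1, Tnnt3 and Col1a1. The mean level of 8 adipocyte markers was 4.38 to 4.42 on the control arrays and 4.56, 5.10 and 4.56 on DOX 1, 2 and 3, and that of 6 skeletal muscle markers was 5.67 to 5.80 against 5.50, 5.84 and 5.55. In the 5 arrays 3 of the 6 muscle markers (Acta1, Tnnt3 and Mylpf) and 3 of the 7 luminal markers (Krt8, Krt18 and Elf3) were lower, 1 luminal marker, Cldn4, was higher, 2 of the 7 basal markers (Krt14 and Oxtr) were lower, and 2 of the 6 leukocyte markers (Cd68 and Ptprc) and 1 adipocyte marker (Cidea) were higher. No fibroblast or endothelial marker of the 6 and 5 measured was called. Of all genes 14.3% were lower and 12.3% higher in the 5 arrays, so 1 called marker among 7 or 8 lies near these shares. The part of these marker shifts in the results below was not tested, and in bulk RNA fewer cells of a type and less RNA per cell cannot be told apart.

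Most subunit genes of complexes I, IV and V and 4 of the 9 of complex III were lower on DOX replicates 1 and 3, among them the subunit c genes of ATP synthase, cytochrome c1 and 8 of the 10 cytochrome oxidase genes outside the tissue-restricted isoforms. Genes not called included Sdha, Ndufs1, Uqcrc2, Cox7a2l, Cox6c and the alpha and beta subunits of ATP synthase. In the 5 arrays 49 of the 83 genes (59.0%) fell at a limma adjusted p under 0.05 and 0 rose, while 14.3% of all genes fell and 12.3% rose. The median log2 difference of the 83 genes was −0.48, which is 0.716 of the control level, and single genes ranged from −1.11 to 0.22. The median over all genes was 0.01. The DOX values lay below all control values without overlap for 61 of the 83 genes, against 26.2% of all genes, and above them for 3, against 25.4%. With all 6 arrays 1 gene, Ndufb7, passed the threshold, where 2.26% of all genes fell. Of the 83 differences 77 were below 0, 38 genes reached an unadjusted p under 0.05 in limma and the median was −0.71. Among all 19937 genes 9614 differences were below 0, 2795 genes reached that unadjusted p and the median was 0.02. The count of subunit genes past the adjusted threshold was 0 to 8 in the alternatives that kept DOX replicate 2 at full weight. It was 55 when limma weighted the arrays by their spread. The groups did not overlap for 58 genes below and 1 gene above the control arrays, against 20.3% and 11.7% of all genes.

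**Figure D1:**
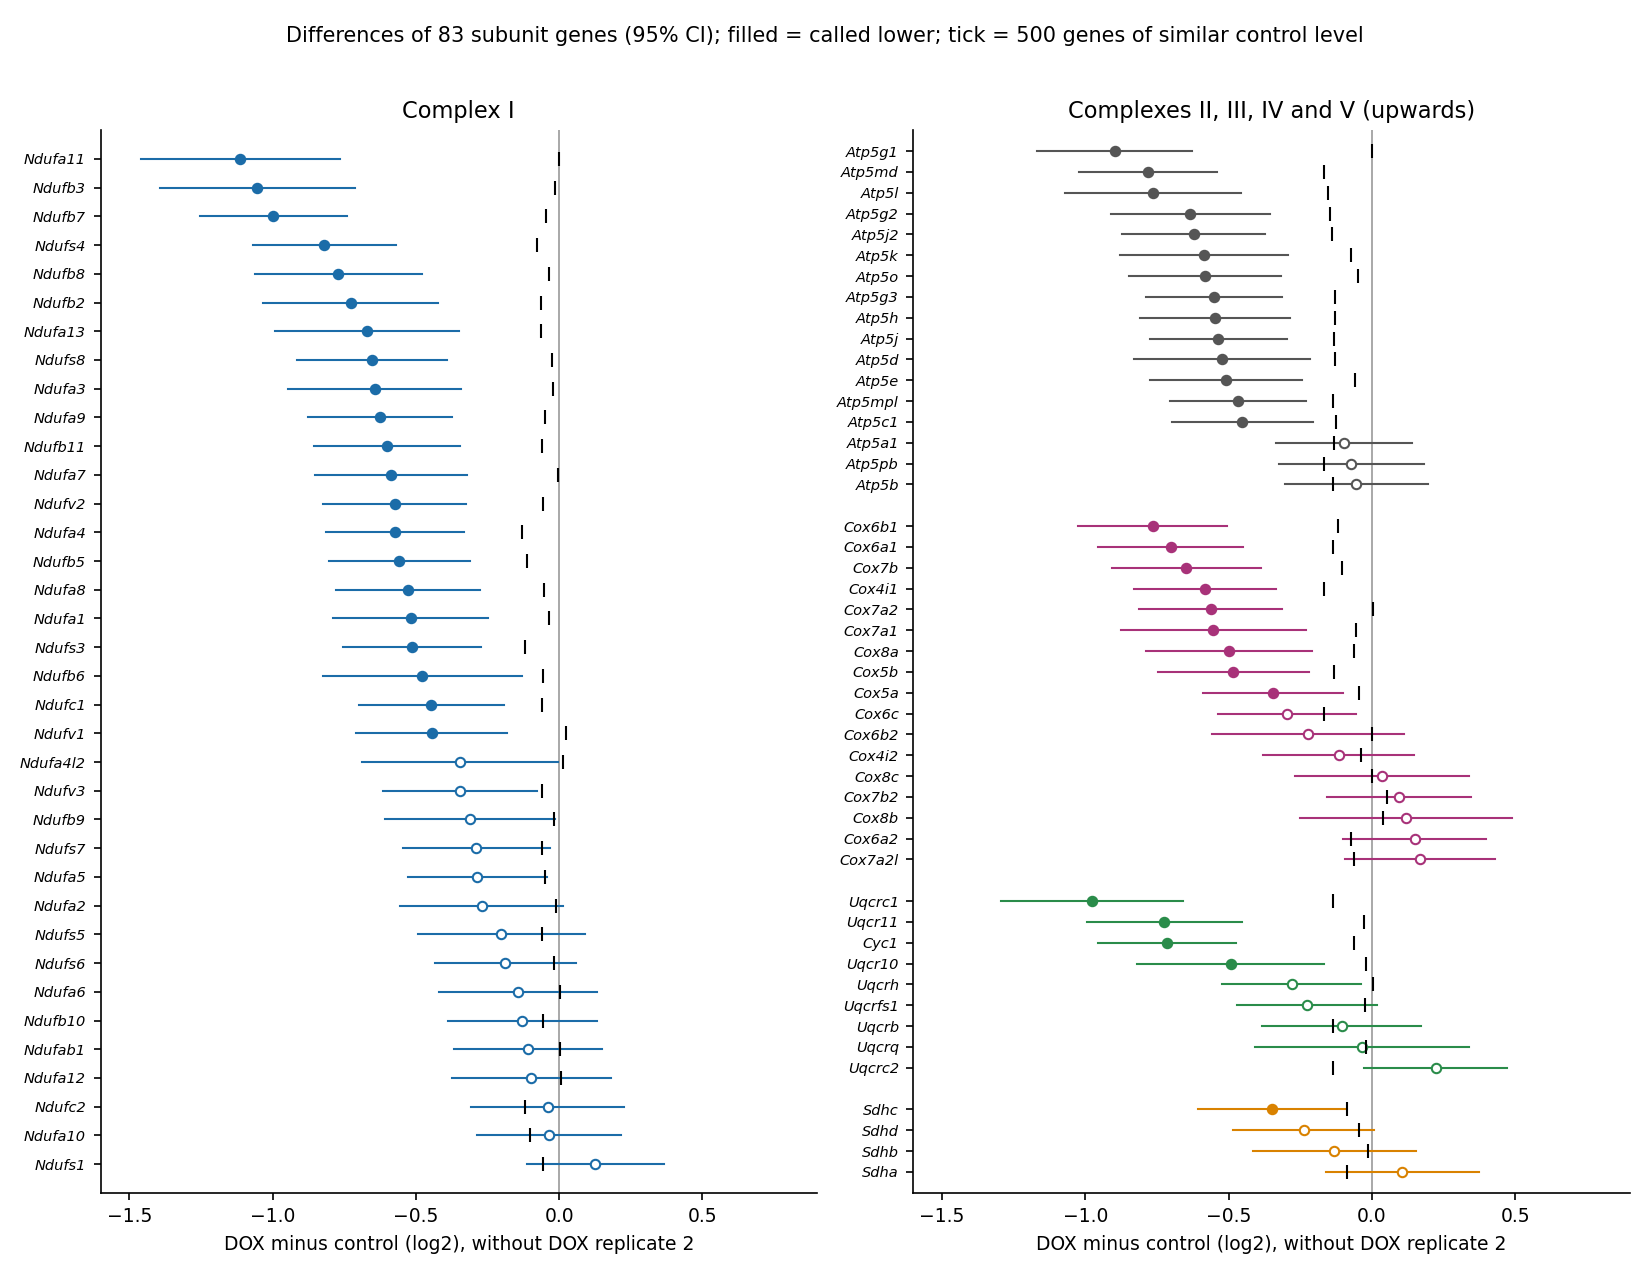
Log2 difference (DOX replicates 1 and 3 minus the 3 control arrays) of each of the 83 subunit genes, by complex, with its 95% confidence interval. Filled points fell at an adjusted p under 0.05 (49 genes), open points were not called (34 genes), and the tick beside each point is the median difference of the 500 other genes nearest in control level.

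The genes are strongly expressed, with a median control level of 9.32 against 5.93 for all genes, so each was set beside the 500 other genes nearest to it in mean control level, as a description without a test. Those neighbours had a median difference of −0.06 in the 5 arrays, and on average 26.4% of them fell and 16.7% rose. A subunit gene lay below the median of its neighbours in 69 of 83 cases, with a median gap of −0.39. On single arrays the subunit genes differed from the control mean by a median of −0.40 on DOX 1 and −0.47 on DOX 3, where their neighbours differed by −0.03 and −0.09. DOX replicate 2 gave another picture: the subunit genes differed by −1.25, their neighbours by −1.52, and 31 of the 83 genes lay below their neighbours. The larger differences of the 6-array comparison thus include a shift on 1 array that other genes of the same level shared.

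**Figure D2:**
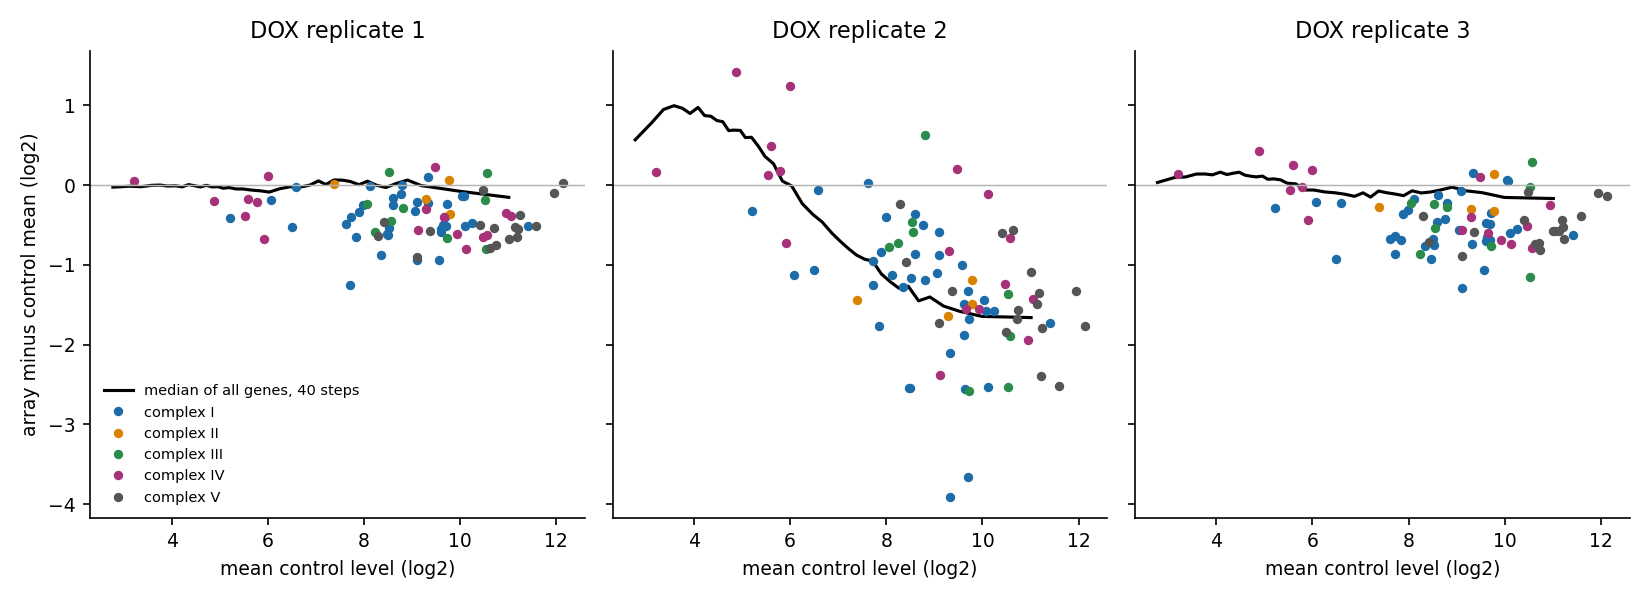
Difference of each subunit gene from its control mean (log2, vertical axis) against that control mean (log2 level, horizontal axis), in 1 panel for each DOX array, with the median of all genes in steps of control level as a black curve. On DOX 1 and DOX 3 most points lie under the curve (median −0.40 and −0.47), while on DOX 2 the curve itself drops at high levels and 31 of 83 genes lie below the median of their neighbours.

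The upstream sequence of the genes was examined for motifs of factors known to act on respiratory chain genes, because so many members moved together. RefSeq windows (GRCm38.p6, 250 bases before to 50 bases after the start) were found for 67 of the 83 genes. Both strands were searched for 3 motifs, and a window could hold more than 1 of them: the nuclear respiratory factor 1 motif (GCGCA, any base, then GCGC), the ETS motif CCGGAAGT bound by GABP, and the YY1 motif AAGATGGC. The stretches below are the 150 bases before the start, written along the gene's strand, with motif matches in capitals. They show members of complexes I, III and V that fell, and Sdha of complex II, which was not called and holds 3 matches. Each stretch shown holds a match, whereas 29 of the 67 genes had any match in their windows.
Ndufa11, chr17:56717612-56717761, strand plus: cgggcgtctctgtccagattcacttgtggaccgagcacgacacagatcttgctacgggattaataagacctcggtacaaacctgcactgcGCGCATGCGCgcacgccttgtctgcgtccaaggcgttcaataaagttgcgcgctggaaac
Uqcr11, chr10:80406822-80406971, strand minus: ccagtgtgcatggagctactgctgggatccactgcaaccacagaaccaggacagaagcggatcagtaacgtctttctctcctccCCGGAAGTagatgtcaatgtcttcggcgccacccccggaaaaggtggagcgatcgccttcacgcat
Atp5g2, chr15:102671048-102671197, strand minus: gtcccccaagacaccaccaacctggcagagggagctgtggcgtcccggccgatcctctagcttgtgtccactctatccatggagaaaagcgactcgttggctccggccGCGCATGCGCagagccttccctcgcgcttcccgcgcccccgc
Atp5h, chr11:115419920-115420069, strand minus: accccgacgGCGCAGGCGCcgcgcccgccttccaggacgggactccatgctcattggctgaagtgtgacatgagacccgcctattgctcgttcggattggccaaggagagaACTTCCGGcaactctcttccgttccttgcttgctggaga
Sdha, chr13:74350241-74350390, strand minus: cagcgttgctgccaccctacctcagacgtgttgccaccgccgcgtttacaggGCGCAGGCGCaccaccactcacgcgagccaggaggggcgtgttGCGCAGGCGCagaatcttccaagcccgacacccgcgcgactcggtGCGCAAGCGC
The nuclear respiratory factor 1 motif was present in 16 of the 67 genes (23.9%), against 5.19% of 27025 genes with a window. The YY1 motif was present in 10 (14.9%), against 3.19%, and the ETS motif in 5 (7.46%), against 4.31%. The 27025 genes include genes not measured here. They were not matched to the subunit genes in expression level or base composition. Windows were found for 45 of the 49 genes that fell in the 5 arrays, but for only 22 of the 34 not called. Ndufs1, Uqcrc2, Atp5a1 and Cox6c were among the genes without a window. The share with any of the motifs was 44.4% among the 45 genes and 40.9% among the 22. It was 11.7% among all genes with a window. For the nuclear respiratory factor 1 motif alone the shares were 22.2% of genes that fell and 27.3% of those not called. They were 15.6% and 13.6% for the YY1 motif, and 8.89% and 4.55% for the ETS motif. The matches describe letters only, and binding was not measured.

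Complex I, the NADH dehydrogenase, had 21 of 36 genes lower and none higher in the 5 arrays, with a median difference of −0.50 (neighbours −0.05). Ndufb7, an accessory subunit of the membrane arm, read 9.49, 9.68 and 9.54 on the control arrays and 8.64, 8.57 and 8.51 on DOX 1, 2 and 3. The groups lie apart with every DOX array at nearly the same value, and the difference was −0.997 ± 0.17 (SE; limma adjusted p = 0.036) with all 6 arrays and −0.997 ± 0.12 (limma adjusted p = 1.07e-04) in the 5 arrays. On DOX 2 its difference of −0.996 was smaller than that of its neighbours, −1.57. The 6-array call was kept in 6 of 16 alternatives, and it was lost on leaving out any array other than DOX replicate 2. Ndufa11, another membrane-arm subunit, read 8.91, 9.37 and 9.04 against 8.17, 8.23 and 7.81, and had the largest difference among the 83 genes in the 5 arrays, −1.11 ± 0.16 (limma adjusted p = 4.24e-04). Ndufb3, also of the membrane arm, read 7.95, 7.56 and 7.64 against 6.47, 6.77 and 6.86, a difference of −1.05 ± 0.15 (limma adjusted p = 5.15e-04). For both genes all 3 DOX arrays were below all 3 control arrays.

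Among the core subunits of the matrix arm of complex I, most of which carry the flavin or iron-sulfur clusters, 4 of 6 were lower. Ndufs8, a subunit with iron-sulfur clusters, read 8.42, 8.65 and 8.43 against 7.87, 5.95 and 7.82, a difference of −0.65 in the 5 arrays (limma adjusted p = 0.00205). Ndufv2 and Ndufs3 fell by 0.57 and 0.51, and Ndufv1, the flavin subunit, fell by 0.44. Ndufs1, the largest subunit of the complex, was not called: it read 9.34, 9.30 and 9.36 on the control arrays and 9.44, 7.23 and 9.49 on the DOX arrays. Its difference in the 5 arrays was 0.13 (95% interval −0.11 to 0.36, limma adjusted p = 0.436). The difference of Ndufs8 lies outside that interval. Ndufs7 had a difference of −0.29 (limma adjusted p = 0.0942). The counts in the symbol families were 5 of 10 for Ndufs and Ndufv, 8 of 15 for Ndufa, and 8 of 11 for Ndufb and Ndufc. Ndufs4, an accessory subunit needed for a stable NADH-oxidising arm, read 8.43, 8.32 and 8.29 against 7.47, 7.06 and 7.59 and fell by 0.82 (limma adjusted p = 3.47e-04).

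Ndufa9, which lies where the matrix arm joins the membrane arm, fell by 0.63 in the 5 arrays, and Ndufb8 and Ndufb2 of the membrane arm fell by 0.77 and 0.73. Ndufa10 was nearest to 0 in the complex, with a difference of −0.04 (limma adjusted p = 0.857). Ndufa4, named as a complex I subunit but now regarded as part of complex IV, read 11.43, 11.42 and 11.39 against 10.90, 9.69 and 10.78 and fell by 0.57 (limma adjusted p = 0.00271). Its paralogue Ndufa4l2, a gene known to be induced by hypoxia, was near the low end of the scale (5.10, 5.01 and 5.53 against 4.80, 4.89 and 4.93) and was not called (limma adjusted p = 0.131). The remaining 20 genes of the complex had differences between −0.67 and −0.04 in the 5 arrays. On DOX replicate 2 Ndufb6 and Ndufc1 differed from their control means by −3.90 and −3.66 there, while they fell by 0.48 and 0.45 in the 5 arrays.

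In complex II, succinate dehydrogenase, 1 of 4 genes was lower, and the median difference in the 5 arrays was −0.18 (neighbours −0.07). Sdha, the flavoprotein that oxidises succinate, read 9.85, 9.61 and 9.86 against 9.84, 8.59 and 9.92, so DOX 1 and 3 lay within or just above the range of the control arrays (difference 0.11, limma adjusted p = 0.571). Sdhb, the iron-sulfur subunit, differed by −0.13 (limma adjusted p = 0.508), and the membrane anchor Sdhd by −0.24 (limma adjusted p = 0.15). Sdhc, the other membrane anchor, read 9.64, 9.85 and 9.85 against 9.41, 8.30 and 9.45 and passed the threshold narrowly (−0.35, 95% interval −0.61 to −0.09, limma adjusted p = 0.0491). That call was kept in 7 of 15 alternatives, and it was lost on leaving out any 1 of the 5 arrays. With 4 genes no test of the complex against the others was made.

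**Figure D3:**
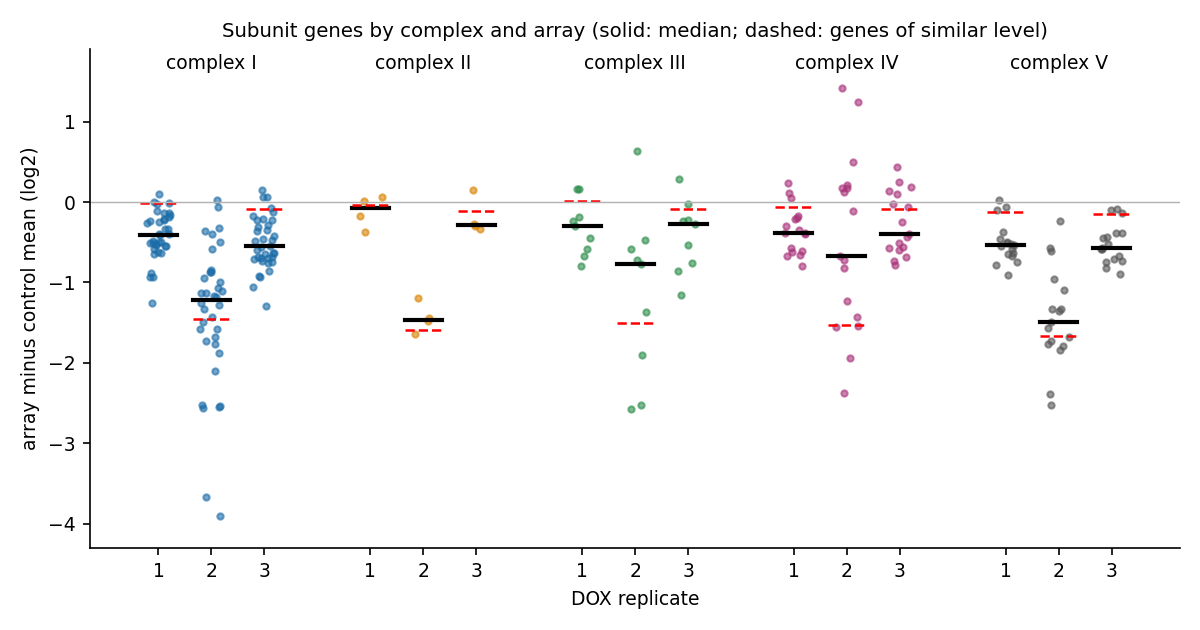
Difference of each subunit gene from its control mean (log2), by complex and by DOX replicate; the solid bar is the median of the complex and the dashed bar the median of genes of similar control level. On DOX 1 and DOX 3 the solid bars lie below the dashed bars in every complex (complex II −0.08 and −0.29, complex III −0.29 and −0.27), and on DOX 2 the medians run from −0.67 (complex IV) to −1.50 (complex V) beside dashed bars at −1.45 to −1.67.

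Complex III, which hands electrons from ubiquinol to cytochrome c, had 4 of 9 genes lower, with a median of −0.28 in the 5 arrays (neighbours −0.03). The core proteins Uqcrc1 and Uqcrc2 occur in equal number in the complex. Uqcrc1 read 10.46, 10.73 and 10.41 on the control arrays and 9.73, 8.00 and 9.38 on the DOX arrays, a difference in the 5 arrays of −0.98 ± 0.14 (95% interval −1.29 to −0.66, limma adjusted p = 5.57e-04). Uqcrc2 read 10.58, 10.50 and 10.62 against 10.72, 8.67 and 10.86, a difference of 0.22 (95% interval −0.03 to 0.47, limma adjusted p = 0.179), with DOX 1 and 3 above every control array. After each array was centred on genes of the same level it was called higher (0.40, limma adjusted p = 0.0153). Within an array, the level of Uqcrc1 minus that of Uqcrc2 was −0.13, 0.23 and −0.22 on the control arrays and −0.996, −0.67 and −1.48 on DOX 1, 2 and 3. The groups did not overlap in this difference on any DOX array. That was not so for every pair examined: Ndufa9 minus Ndufs1 of complex I was 0.34, 0.29 and 0.19 on the control arrays and −0.38, 0.50 and −0.58 on DOX 1, 2 and 3. Such a difference shows unequal change between probe sets and not which transcript was the more abundant.

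Cyc1, cytochrome c1, read 9.74, 9.75 and 9.68 against 9.06, 7.15 and 8.97 and fell by 0.71 (limma adjusted p = 7.02e-04). The small subunit Uqcr11 fell by 0.72 (limma adjusted p = 0.00135), and Uqcr10 fell by 0.49. The Rieske iron-sulfur protein gene Uqcrfs1 had a difference of −0.23 (limma adjusted p = 0.164), the hinge protein gene Uqcrh one of −0.28 (limma adjusted p = 0.0849), and Uqcrb and Uqcrq had −0.11 and −0.03.

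Complex IV, cytochrome c oxidase, draws several of its nuclear subunits from paralogues used in different tissues. Of the 10 genes outside the tissue-restricted isoforms 8 were lower in the 5 arrays, with a median of −0.53, while of the 7 restricted isoforms 1 was lower and the median was 0.03. Without control replicate 2 the count for the whole complex was 5 of 17 in place of 9 of 17. The restricted isoforms had a median control level of 5.59, below the median of all genes, and their values near the low end of the scale can understate a difference. Cox4i1, the ubiquitous form of subunit 4, read 10.46, 10.43 and 10.52 against 9.81, 9.23 and 9.96 and fell by 0.58 (limma adjusted p = 0.00293), whereas Cox4i2, its lung and hypoxia form, had −0.12 (limma adjusted p = 0.527). Cox6a1 read 10.58, 10.63 and 10.50 against 9.95, 9.90 and 9.78, all DOX arrays lying below all control arrays, and fell by 0.70 in the 5 arrays (limma adjusted p = 0.00104). Its striated muscle form Cox6a2 read 6.00, 6.08 and 5.90 against 6.11, 7.24 and 6.18, with a difference of 0.15 (limma adjusted p = 0.379). That is the 1 gene whose values lay above the control arrays on all 3 DOX arrays.

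Cox6b1 had the largest difference of the complex in the 5 arrays, −0.76 (limma adjusted p = 7.43e-04), from 9.997, 10.13 and 10.25 against 9.33, 10.01 and 9.39. DOX replicate 2 was the highest of its DOX arrays. Cox7b, Cox8a, Cox5b and Cox5a fell by 0.65, 0.50, 0.48 and 0.35, and Cox6c was not called (−0.30, limma adjusted p = 0.0698). After each array was centred on genes of the same level, Cox5b and Cox5a were not called (limma adjusted p = 0.057 for each). Cox7a1, the heart and muscle form of subunit 7a, was the restricted isoform that fell, from 6.01, 6.07 and 5.65 to 5.24, 5.19 and 5.47 (−0.55, limma adjusted p = 0.0166). Of the skeletal muscle markers given above 3 of 6 were lower, against 14.3% of all genes. Ckm, Myh4 and Actn3 were not called (0.05, 0.09 and −0.17). The part of these markers' shifts in the Cox7a1 value was not tested. Cox8b of muscle and Cox6b2, Cox7b2 and Cox8c of testis had differences from −0.22 to 0.12, with 0 called.

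Cox7a2, the widely expressed form of subunit 7a, read 9.12, 9.22 and 9.02 against 8.55, 6.74 and 8.56 and fell by 0.56 (limma adjusted p = 0.00388). Cox7a2l, a related protein that joins complexes III and IV into supercomplexes, read 9.45, 9.61 and 9.39 against 9.71, 9.69 and 9.58, a difference of 0.17 in the 5 arrays (limma adjusted p = 0.345). Its value on DOX 2 was 0.21 above the control mean, where the median of its neighbours was −1.56. Cox7a2 minus Cox7a2l within an array was −0.33, −0.39 and −0.36 on the control arrays and −1.16, −2.94 and −1.02 on the DOX arrays.

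**Figure D4:**
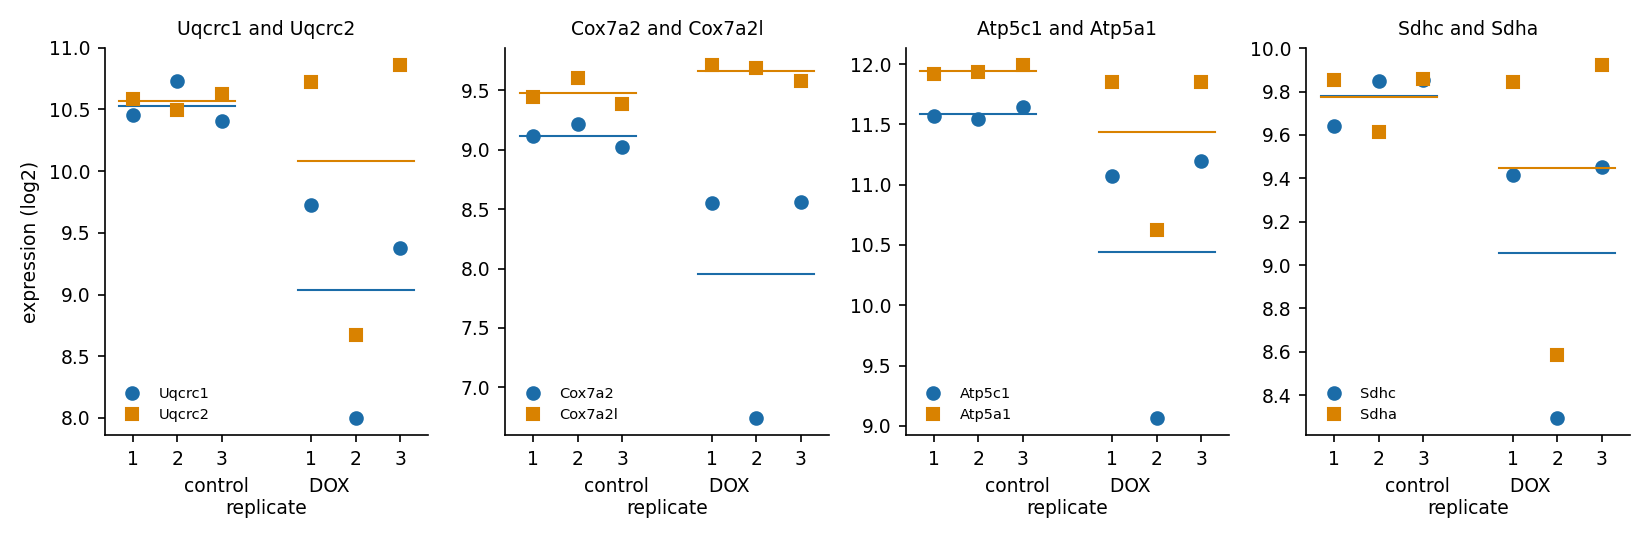
Log2 level on each array of 4 pairs of partner genes (Uqcrc1 and Uqcrc2, Cox7a2 and Cox7a2l, Atp5c1 and Atp5a1, Sdhc and Sdha), with lines at the group means. The first gene of each pair lies lower on DOX 1 and DOX 3 than on any control array, and the second lies closer to its control mean, for example 9.73 and 9.38 against 10.41 to 10.73 for Uqcrc1 beside 10.72 and 10.86 against 10.50 to 10.62 for Uqcrc2.

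Complex V, the ATP synthase, had the highest share: 14 of 17 genes were lower in the 5 arrays, with a median of −0.55 (neighbours −0.13). Its neighbours also fell most often, 32.25% on average against 21.75% to 28.44% for the other complexes. The median gap to neighbours was −0.42 in complex V and −0.43 in complex I. The 3 genes that were not called include both large subunits of the catalytic head. Atp5b, the catalytic beta subunit, read 12.19, 12.12 and 12.09 against 12.16, 10.37 and 12.00 (−0.05, limma adjusted p = 0.772), and Atp5a1, the alpha subunit, read 11.92, 11.93 and 11.99 against 11.85, 10.62 and 11.85 (−0.10, limma adjusted p = 0.557). On both genes DOX 1 and 3 lay close to the control arrays and DOX 2 far below them. Atp5pb, the b subunit of the peripheral stalk, differed by −0.07 (limma adjusted p = 0.698). Atp5c1, the gamma subunit that turns inside the head, fell: it read 11.57, 11.54 and 11.65 against 11.07, 9.07 and 11.19 (−0.45, limma adjusted p = 0.0117). Atp5c1 minus Atp5a1 within an array was −0.35, −0.39 and −0.34 on the control arrays and −0.78, −1.56 and −0.65 on the DOX arrays.

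Atp5d and Atp5e, which complete the central stalk, fell by 0.52 and 0.51, and Atp5o, the protein that ties the head to the peripheral stalk, fell by 0.58. The membrane rotor is built from subunit c, for which Atp5g1, Atp5g2 and Atp5g3 encode the same mature protein. Atp5g1 read 8.995, 9.27 and 9.05 against 8.20, 7.38 and 8.21 and fell by 0.90 (limma adjusted p = 3.08e-04), the largest difference of the complex. Atp5g2 and Atp5g3 fell by 0.63 and 0.55, so all 3 genes for this subunit were lower. Atp5md, a small membrane subunit, read 10.71, 10.79 and 10.71 against 9.99, 9.17 and 9.92 and fell by 0.78 (limma adjusted p = 3.78e-04). Atp5l fell by 0.76 on its brightest probe set (limma adjusted p = 0.00205), while its 5 probe sets ranged from −0.10 to −0.76. The other 5 genes, Atp5h, Atp5j, Atp5j2, Atp5k and Atp5mpl, fell by 0.47 to 0.62.

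Other mitochondrial genes were called in both directions, as were all genes, of which 14.3% fell and 12.3% rose in the 5 arrays. Of 41 assembly factors measured 9 were lower and 2 higher in the 5 arrays, and the median was −0.03. Cox19, a copper-handling factor for complex IV, passed the threshold with all 6 arrays as well (−1.09, limma adjusted p = 0.0326), and Coa3 and Acad9, factors for complexes IV and I, fell by 0.84 and 0.80 in the 5 arrays. Ndufaf1 and Ndufaf4, factors for complex I, rose by 0.57 and 0.42. Of 16 genes of the citric acid cycle and pyruvate dehydrogenase 3 were lower (Idh3g, Mdh2 and Fh1, by 0.75, 0.46 and 0.42) and 2 higher (Dld and Dlat, by 0.68 and 0.58). Citrate synthase, Cs, differed by 0.01 (limma adjusted p = 0.957). Of 5 electron carrier genes Etfb, which feeds electrons from fatty acid oxidation, fell by 0.88, and the cytochrome c gene Cycs differed by 0.15 (limma adjusted p = 0.39).

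Import, carrier and chaperone genes had 4 of 20 lower and 3 higher, against 14.3% and 12.3% of all genes, with a median of −0.01. The 3 that rose were the matrix chaperones Hspa9 and Hspd1 and the matrix protease Lonp1, by 1.26, 0.64 and 0.92. Of 17 regulators of mitochondrial biogenesis 0 were lower and 4 were higher (Ppargc1a, Mterf3, Yy1 and Tfb1m). Ppargc1a, a coactivator that raises transcription of respiratory chain genes, read 7.12, 7.03 and 7.16 on the control arrays and 8.34, 6.46 and 8.14 on DOX 1, 2 and 3. DOX 1 and 3 were above and DOX 2 below every control array, and the difference was 1.14 in the 5 arrays (limma adjusted p = 4.07e-05) but not called with all 6 (limma adjusted p = 0.564). Nrf1, Gabpa and Esrra, which act on nuclear respiratory chain genes, and Tfam, which acts on mitochondrial DNA, had differences of −0.15, 0.04, −0.14 and 0.16, with 0 called. With all 6 arrays 0 regulators, 0 citric acid cycle genes and 0 import genes were called.

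**Figure D5:**
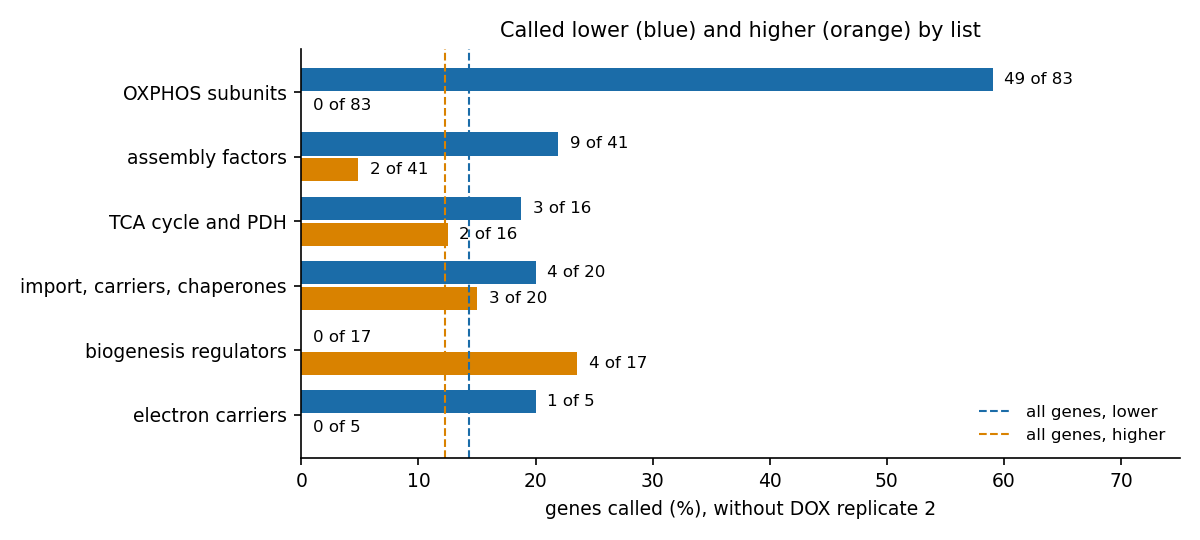
Percent of the measured genes in each list called lower or higher in the 5 arrays, beside the share of all genes as dashed lines (14.3% lower and 12.3% higher). The subunit genes have 49 of 83 lower and 0 higher, and the biogenesis regulators have 0 of 17 lower and 4 higher.

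Subunit genes are mostly short. The 42 subunit genes with a genomic span up to 7.18 kb had 28 lower (66.7%) in the 5 arrays and the 41 longer ones 21 lower (51.2%). Among other genes above the median control level the shares were 34.3% for those of the same short span and 22.8% for longer ones. The part of gene length in the counts was not tested.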

How the data were processed

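Each of 6 organoid cultures gave RNA for 1 Affymetrix mouse whole-transcript array in 1 colour. The authors deposited log2 expression levels per probe set, for which the submitters' processing notes name RMA and affy, without versions. A genome build for the array annotation was not given in the sources used here. RMA values have no detection calls and no true 0, and precision is limited by the number of arrays.

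Of 34760 probe sets, 21640 carried 1 gene symbol, 1321 several and 11799 none here. The brightest probe set stood for each of 19937 genes. Groups, taken from the sample titles, were compared by two-sided moderated tests without covariates (lmFit and eBayes of limma 3.58.1, R 4.3.3) on all 6 arrays and on the 5 without DOX replicate 2, with Benjamini-Hochberg adjustment over all genes and a threshold of 0.05. The fit was tested on data simulated with the genes' own means and spread. Of 2-fold changes 6% were recovered with all 6 arrays and 77% in the 5 arrays, and of 4-fold changes 51% and 100%. Unchanged genes made up 1.72% and 2.75% of the simulated calls. The simulation gave each gene 1 spread on every array, so it lacked the level-dependent shift of DOX replicate 2. It also changed only a small part of the genes, while 14.3% of all genes fell and 12.3% rose in the real 5 arrays. These rates may therefore differ from those of the real arrays. A gene not called with all 6 arrays may still have changed. Each member was set beside the 500 other genes nearest in control mean. Promoter windows and gene spans came from RefSeq (GRCm38.p6), where all 83 genes were found by gene identifier.

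The named genes were the core subunits, the paralogue sets, the members with the largest and the smallest difference in each complex, the members called with all arrays, and called genes of each pathway list. Ndufa9, Ndufb8, Ndufb2, Ndufs4, Ndufb6, Ndufc1, Atp5l and the within-array pairs were chosen after their values were seen. The members and lists were chosen with earlier results of these data known. Alternatives were the replicate block, leaving out the dimmest 25% or 50% of genes, quantile normalization applied again, cyclic loess, median centring, centring on genes of the same level (level centring), averaging probe sets, array weights, robust estimation with a variance trend, and leaving out each array.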

Additional observations from a re-analysis of the deposited data

How the results depend on the processing

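In the 5 arrays the count of subunit genes called lower was 38 to 53 over the 15 alternatives, and 35 of the 49 genes were lower in each of them. With all 6 arrays the count of 1 became 0 with a variance trend and robust estimation, 3 with arrays centred on their medians, 5 with a second quantile normalization, 5 with level centring, 8 with cyclic loess and 55 with array weights. Leaving out each array in turn gave 0 to 49, and 49 came without DOX replicate 2. All-gene calls with all 6 arrays were 24 higher and 450 lower, against 185 and 626 with quantile normalization, 557 and 1197 with loess, 625 and 839 with level centring and 7 and 487 with median centring. In the 5 arrays they were 2454 and 2855, against 1823 and 3410 with median centring. Median centring moved the all-gene median with all 6 arrays from 0.02 to −0.18, and quantile normalization moved it to −0.09. Relative to it the subunit median was −0.73 as reported and after median centring, −0.47 after quantile normalization, −0.31 with loess (−0.34 before subtraction) and −0.19 with level centring.

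Replicate numbers were not taken to pair the arrays, since no source used here states a pairing. Same-numbered arrays had correlations of deviations of 0.12, 0.19 and 0.09, and differently numbered arrays had −0.19 to 0.12. These values do not settle whether the arrays were paired. With the replicate block 0 subunit genes were lower with all 6 arrays, so Ndufb7 was not called. In the 5 arrays 42 were lower, 41 of them among the 49, with 0 in complex II (Sdhc not called). The medians were −0.30 in complex III and −0.51 in complex V. In that fit control replicate 2 had no DOX array of its number, so it did not bear on the differences. The median of all subunits was −0.45, as it was when control replicate 2 was left out.

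Medians with all 6 arrays became −0.19 (all subunits), −0.29 (complex I), −0.12 (IV) and −0.20 (V) with level centring, which also turned complex III to 0.0008. Loess gave −0.13 (III) and −0.30 (IV). For complex IV the 50% filter gave −0.80, median centring −0.75 and array weights −0.39, and leaving out each array gave −0.58 to −0.35. In the 5 arrays level centring gave −0.38 (all), −0.28 (IV) and −0.39 (V), with 1 subunit gene higher (Uqcrc2) and 0 lower in complex II. Median centring gave −0.55 (all), −0.35 (III), −0.41 (IV) and −0.62 (V). Quantile normalization gave −0.31 (III) and −0.39 (IV), the 25% and 50% filters −0.41 and −0.50 (IV), and the mean over probe sets −0.52 (V). Array weights left 0 of complex II lower. Leaving out each of the 5 arrays gave −0.53 to −0.40 (all), −0.30 to −0.25 (III), −0.40 to −0.32 (IV) and −0.57 to −0.51 (V), with 0 to 0 lower in complex II, 5 to 8 in complex IV and 0 to 1 higher. The higher gene was Cox8b, without DOX replicate 1. With 1 DOX array left, that array is assumed to vary like the control arrays. The cause of these shifts was not tested.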

Other observations

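Of the subunit genes, 17 had 2 or more probe sets, and in 0 of these did the probe sets differ in sign in the 5 arrays without DOX replicate 2. The size of the difference varied between probe sets in the following examples, chosen after their values were seen. Atp5g2 had a difference of −0.63 on its brightest probe set (control mean 10.71) and −0.36 and −0.21 on the others (7.98 and 8.39). Atp5l had −0.76 on its brightest (10.63) and −0.10 on its dimmest (6.84). Ndufab1 went the other way, with −0.11 on the brighter (8.80) and −0.41 on the dimmer probe set (7.36). Whether the dimmer probe sets match other copies of these genes was not tested.

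Etfb, the beta subunit of the flavoprotein that carries electrons from fatty acid oxidation to ubiquinone, read 9.47, 9.51 and 9.44 on the control arrays and 8.52, 8.12 and 8.66 on DOX 1, 2 and 3, with all DOX arrays below all control arrays. Hspa9, the mitochondrial Hsp70, read 11.22, 11.08 and 11.21 against 12.47, 11.69 and 12.38. Lonp1 read 7.94, 8.07 and 8.05 against 9.06, 8.63 and 8.83. Both lay above the control arrays on all 3 DOX arrays, and neither passed the threshold with all 6 (limma adjusted p = 0.126 for Hspa9 and 0.0998 for Lonp1).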
